A study of Homo sapiens with 12 samples.

Results

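A stretch of chromosome 14 that holds BMP4 and CDKN3 was described across 4 groups of HCT116 cells, a human colon carcinoma line. The stretch was defined by its ends, 53169010 and 54420218 on hg38, a span of 1251.209 kb. Of the 60648 gene rows in the deposited count table, 11 start within these ends, and 5 of those held at least 10 counts in 3 or more libraries: ENSG00000237356, LINC02331, BMP4, ENSG00000287156 and CDKN3. The same count rule was passed by 18479 genes of all chromosomes together, 559 of them on chromosome 14. The stretch had been picked because its genes differed between groups in these same libraries, and the contrast that picked it is not stated. All differences of these 5 genes, between genotypes and between harvests, rest on those libraries and are given as a description, without a test.

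The groups were WTT0 (MTHFD2 wild type, initial harvest), WTTF (wild type, final harvest), KOT0 (MTHFD2 knock-out, initial harvest) and KOTF (knock-out, final harvest), with 3 poly-A RNA-seq libraries in each. The labels call the libraries of a group biological replicates and do not say whether they came from separate cultures, or whether the wild type is the parental population or a clone; every SD and p-value measures the spread between these libraries, which may be technical. The knock-out had been made with CRISPR-Cas9, and its cells came from 1 isolated clone. The initial harvest was taken directly once the knock-out had been made, and the final harvest after 2 months of culture. All cells grew in DMEM with fetal bovine serum and antibiotics. MTHFD2 is a mitochondrial enzyme of folate one-carbon metabolism. Because all knock-out libraries derive from 1 clone, the loss of MTHFD2 and other properties of that clone cannot be told apart.

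BMP4 encodes a secreted growth factor of the TGF-beta superfamily. A BMP ligand binds a complex of type I and type II receptors, which phosphorylates SMAD1, SMAD5 and SMAD9; these join SMAD4 and enter the nucleus, where ID genes and the inhibitory SMADs are well-known targets. In the gut, BMP signals are high towards the surface of the epithelium and favour differentiation, while secreted antagonists hold them low near the crypt base. CDKN3 encodes a phosphatase that removes the activating phosphate from cyclin-dependent kinases such as CDK2 and CDK1, and its transcript is known to peak late in the cell cycle. ENSG00000237356 and LINC02331 are annotated as non-coding RNAs.

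The promoters of the 2 protein-coding genes are shown so that the sequence at the start sites of BMP4 and CDKN3 can be read beside their levels. Both windows come from RefSeq on GRCh38.p14 and run from 250 bases before to 50 bases after a start site, 5′ to 3′ on the gene's strand. The BMP4 window, 1 of 3 start sites that RefSeq gives for the gene and the one farthest upstream, lies at chr14:53955001-53955300 on the minus strand. The CDKN3 window lies at chr14:54396757-54397056 on the plus strand. Capitals mark matches, on either strand, to 4 short motifs that do not overlap here. The motif GGCGCC is a GC-rich element bound by BMP-activated SMADs. The motif TTTGAA is the cell cycle homology element known from genes of G2 and mitosis. The motif CCAAT is the CCAAT box of many promoters, and the motif TATAAA is the TATA box.
BMP4: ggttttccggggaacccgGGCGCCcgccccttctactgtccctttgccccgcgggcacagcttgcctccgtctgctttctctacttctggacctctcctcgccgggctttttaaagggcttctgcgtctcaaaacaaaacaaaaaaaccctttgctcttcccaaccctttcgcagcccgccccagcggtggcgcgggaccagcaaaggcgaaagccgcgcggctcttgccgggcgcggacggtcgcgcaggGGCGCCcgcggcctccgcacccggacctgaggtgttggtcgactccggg
CDKN3: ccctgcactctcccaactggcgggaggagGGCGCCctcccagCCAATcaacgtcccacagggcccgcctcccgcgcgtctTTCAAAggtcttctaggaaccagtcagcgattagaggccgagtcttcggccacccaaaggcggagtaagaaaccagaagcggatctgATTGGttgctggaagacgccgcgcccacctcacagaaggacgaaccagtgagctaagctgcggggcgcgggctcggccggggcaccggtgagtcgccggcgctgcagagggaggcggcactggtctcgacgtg
The BMP4 window holds 2 matches to the GC-rich element and none to the other motifs. The other 2 BMP4 windows, not printed, hold no match to the GC-rich element, and 1 of them holds 1 match to the cell cycle homology element. The CDKN3 window holds 1 match to the GC-rich element, 2 to the CCAAT box and 1 to the cell cycle homology element, and none to the TATA box. Of 34796 distinct RefSeq promoter windows of the same length, 19.2% hold the GC-rich element, 34.6% the CCAAT box, 15.2% the cell cycle homology element and 11.6% the TATA box. The matches are a description of the letters and were not tied to any measured value. LINC02331, ENSG00000237356 and ENSG00000287156 were not matched in the promoter table.

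Library totals ran from 38597809 to 40017561 counts, and no library stood apart in depth. MTHFD2 itself was between 319 and 457 CPM (counts relative to a library's total, scaled with edgeR's TMM factors) in the 6 wild-type libraries and between 123 and 155 CPM in the 6 knock-out libraries. All 9 markers of colon epithelium exceeded 3 counts in at least 1 library, with a summed level between 2214 and 3232 CPM. Nearly all of this sum is KRT8, KRT18, KRT19, EPCAM and CDH1. VIL1, LGALS4 and CEACAM5 were near 0, at no more than 0.326, 0.147 and 0.128 CPM in any library. Of the 6 markers that passed the filter on low counts, 2 were lower in the knock-out initially and 4 finally in edgeR. Of all tested genes 11.3% and 10.2% were lower. Of the 5 fibroblast markers DCN and LUM were at 0 in every library, and of the 5 immune markers CD3E was. The summed fibroblast markers lay between 55.4 and 78 CPM in the wild type and between 37.3 and 58.8 CPM in the knock-out; nearly all of this is COL1A1, at 54.9 to 77.3 and 36.2 to 57.5 CPM, while PDGFRB was higher in the knock-out (log2 difference 0.96, adjusted p = 0.00816, and 1.08, adjusted p = 0.00333, in edgeR). The summed immune markers lay between 0.513 and 1.24 CPM in the wild type and between 1.28 and 2.35 CPM in the knock-out, where LYZ was higher (2.48, adjusted p = 1.15e-06, and 1.48, adjusted p = 0.000189, in edgeR). The 4 endothelial markers summed to between 1.95 and 2.77 CPM in the wild type and between 2.4 and 3.46 CPM in the knock-out. There KDR was higher (0.77, adjusted p = 0.0146, and 0.67, adjusted p = 0.0298, in edgeR). Its level was 0.568 to 1.33 CPM over all libraries, and DESeq2 called it at the initial harvest only. The part of these marker levels in the results below was not tested. A level in a bulk library does not tell more RNA per cell from more cells that express the gene.

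BMP4 (ENSG00000125378.16, chromosome 14, 53949736 to 53958761, minus strand) had the highest CPM per kb of exon of the 5 genes in every group and stood higher in the knock-out at both harvests. The initial wild-type libraries held 11085, 12941 and 12197 counts of BMP4, or 271, 320 and 305 CPM. In WTTF there were 18403, 20000 and 19467 counts, or 499, 521 and 504 CPM. Every final wild-type library lay above every initial one. The initial knock-out libraries held 40584, 41120 and 36528 counts, or 1024, 1031 and 932 CPM. In KOTF there were 40641, 39011 and 41866 counts, or 1022, 995 and 1052 CPM. All 6 knock-out libraries lay above all 6 wild-type libraries, and the knock-out libraries of the 2 harvests overlapped.

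The BMP4 group means were 299 ± 25.2 CPM in WTT0, 508 ± 11.6 CPM in WTTF, 995 ± 54.9 CPM in KOT0 and 1023 ± 28.2 CPM in KOTF (SD, n = 3). The knock-out level was 3.33 times that of the wild type at the initial harvest (log2 difference 1.74, SE 0.089) and 2.01 times at the final harvest (1.01, SE 0.087). The final genotype difference was thus smaller than the initial one by -0.73 on the log2 scale (SE 0.123). The wild-type level stood 1.7 times higher at the final than at the initial harvest (log2 difference 0.77, SE 0.087), and the knock-out levels of the 2 harvests had a ratio of 1.03. In the knock-out the difference over time was 0.04 on the log2 scale (SE 0.087), and -0.01 without KOT0 replicate 3. Ranked by CPM per kb of exon among all counted genes, BMP4 stood at place 262 in WTT0, 122 in WTTF, 46 in KOT0 and 43 in KOTF. It took 0.0305% of all counts in WTT0 and 0.102% in KOTF.

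ENSG00000287156 (ENSG00000287156.1, 53954671 to 53962234, plus strand) lies opposite BMP4 and overlaps it by 4091 bases, of which 506 are exonic in both. The sources used here do not state whether reads were counted by strand, so reads of the 2 genes cannot be told apart in the shared exons. Its level was 9.11, 6.2 and 8.16 CPM in WTT0 and 16.8, 14.2 and 12.7 CPM in WTTF. In the knock-out it was 40.1, 32.1 and 26.3 CPM in KOT0 and 41.4, 50.7 and 35.6 CPM in KOTF. The wild-type groups did not overlap each other or either knock-out group, while the knock-out groups overlapped. The knock-out was 4.19 times the wild type at the initial harvest (log2 difference 2.07, SE 0.176) and 2.92 times at the final harvest (1.55, SE 0.169), in both cases the highest ratio of the 5 genes. Its counts came to 2.66 ± 0.71% of those of BMP4 in WTT0, 2.87 ± 0.433% in WTTF, 3.28 ± 0.56% in KOT0 and 4.17 ± 0.862% in KOTF (SD, n = 3). These percentages overlapped between WTT0 and WTTF and between KOT0 and KOTF, and between the genotypes at the initial harvest (1.94% to 3.36% and 2.83% to 3.91%). The final knock-out libraries began at 3.38%, just above the highest wild-type library at 3.36%.

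LINC02331 (ENSG00000235269.2, 53685139 to 53850882, minus strand), a long intergenic non-coding RNA, ends 98.853 kb from BMP4. It was at 16.4, 17 and 15.6 CPM in WTT0, at 17.9, 23.7 and 23.9 CPM in WTTF, at 40.1, 41.8 and 44.7 CPM in KOT0 and at 51.7, 47.2 and 50.6 CPM in KOTF. No 2 of its groups overlapped, and the order of the group means was that of BMP4. The knock-out level was 2.59 times the wild-type level at the initial harvest (log2 difference 1.37, SE 0.105) and 2.28 times at the final harvest (1.19, SE 0.103). Between harvests the knock-out differed by 0.24 on the log2 scale (SE 0.101).

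ENSG00000237356 (ENSG00000237356.7, 53169010 to 53883740, plus strand, named AL365295.1 in GENCODE 29) spans 714.731 kb and contains the whole of LINC02331 on the opposite strand, with no shared exonic base. It had the lowest CPM per kb of exon of the 5 genes and was at 3.22, 2.52 and 2.73 CPM in WTT0 and 3.64, 3.67 and 3.49 CPM in WTTF. It was at 7.59, 6.44 and 6.33 CPM in KOT0 and at 9.41, 10.2 and 8.21 CPM in KOTF. No 2 groups overlapped here either. The ratio of knock-out to wild type was 2.4 at the initial harvest (log2 difference 1.26, SE 0.132) and 2.57 at the final harvest (1.36, SE 0.128). Over time in the knock-out the log2 difference was 0.45 (SE 0.121).

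CDKN3 (ENSG00000100526.20, 54396849 to 54420218, plus strand) lies 438.087 kb beyond BMP4 at the far end of the stretch and showed the smallest differences. In WTT0 there were 916, 1231 and 950 counts, or 22.4, 30.4 and 23.8 CPM, and in WTTF 868, 1109 and 1219 counts, or 23.6, 28.9 and 31.5 CPM. In KOT0 there were 1439, 1396 and 1598 counts, or 36.3, 35 and 40.8 CPM, and in KOTF 1450, 1256 and 1507 counts, or 36.5, 32 and 37.8 CPM. Knock-out and wild type did not overlap, but at the final harvest the nearest libraries were 31.5 and 32 CPM. The means were 25.5 ± 4.3 CPM in WTT0, 28 ± 4.06 CPM in WTTF, 37.4 ± 3.04 CPM in KOT0 and 35.5 ± 3.04 CPM in KOTF (SD, n = 3).

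The knock-out level of CDKN3 was 1.46 times the wild-type level at the initial harvest (log2 difference 0.55, SE 0.125) and 1.27 times at the final harvest (0.34, SE 0.125). Without WTTF replicate 1, the lowest library of its group, the final difference was 0.23, and without WTTF replicate 3 it was 0.43. The 2 harvests overlapped within each genotype. In the knock-out they differed by -0.08 on the log2 scale (SE 0.124).

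**Figure D1:**
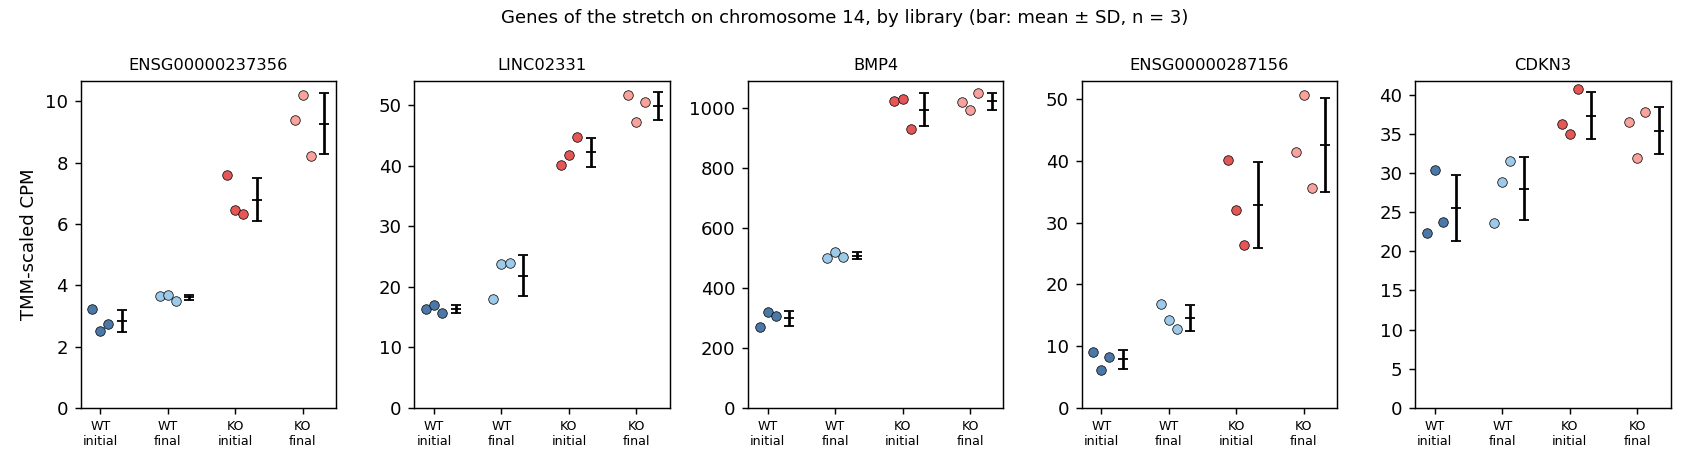
Level of each of the 5 genes in TMM-scaled CPM (vertical axis, linear, from 0, a separate scale for each gene) in the 12 libraries, by group; points are libraries and bars are the mean ± SD of 3 libraries. For every gene the knock-out libraries lie above the wild-type libraries, with the widest gap for BMP4, where the wild type reaches 521 CPM and the knock-out starts at 932 CPM, and the narrowest for CDKN3, at 31.5 and 32 CPM.

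All 5 genes had knock-out libraries above all wild-type libraries at the initial harvest, a separation that 17.1% of the 18289 tested genes showed, and all 5 did so at the final harvest, where 15.9% of tested genes did. Since the genes were picked for their differences, these counts are the outcome of that choice. The median log2 difference of the 5 genes was 1.37 initially and 1.19 finally, where the median of all tested genes was 0 and -0.001. Over time in the wild type, 4 of the 5 genes, all but CDKN3, stood above their initial level without overlap, as did 10.8% of tested genes, and the median difference was 0.42; the edgeR test called 6.47% of all genes over time in the wild type, in either direction. Over time in the knock-out the 5 differences ran from -0.08 for CDKN3 to 0.45 for ENSG00000237356. The unequal genotype differences at the 2 harvests, -0.73 for BMP4, -0.52 for ENSG00000287156, -0.21 for CDKN3, -0.18 for LINC02331 and 0.10 for ENSG00000237356, share their libraries with the differences that picked the genes and were not tested; the edgeR test of such a change called 1.28% of all genes. The 6 rows of the stretch below the count rule were at most at 9 counts in any library (ENSG00000225680), so that no level could be compared for them.

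The 10 counted genes on either side served as reference. Their median log2 difference between knock-out and wild type was 0.01 before the stretch and -0.01 after it at the initial harvest, and 0.04 and -0.03 at the final harvest. The genes directly outside were DDHD1, a phospholipase gene, with 0.37 and 0.18 at the 2 harvests, and CNIH1, which encodes a cargo receptor of the early secretory pathway, with 0.31 and 0.15. Both lie below CDKN3, the lowest gene inside, at 0.55 and 0.34 (SE 0.125 at each harvest). The stretch was picked for its differences, so this order may follow from that choice. DDHD1 and CNIH1 had an SE of 0.086 at each harvest, and without WTTF replicate 1 the final value of CDKN3 was 0.23. DDHD1 was at 58.8 ± 6.8 CPM in WTT0 and 76 ± 1.97 CPM in KOT0, and CNIH1 at 147 ± 13.4 and 182 ± 4.54 CPM (SD, n = 3), with knock-out libraries above wild-type ones in each case. At the final harvest the groups overlapped for CNIH1 and did not for DDHD1.

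Of the 20 neighbours, 2 differed by more than 0.5 in log2 at the initial harvest. PTGER2, a prostaglandin E2 receptor gene with 31 to 73 counts per library, stood at 0.72 (SE 0.192), with 0.23 (SE 0.196) at the final harvest. SAMD4A, which encodes an RNA-binding repressor of translation, stood at 0.97 (SE 0.104) and was the single neighbour beyond 0.5 at the final harvest, at 1.38 (SE 0.106). SAMD4A was at 30.9 ± 4.34 CPM in WTT0, 20.6 ± 1.49 in WTTF, 60.6 ± 3.38 in KOT0 and 53.6 ± 4.55 CPM in KOTF (SD, n = 3). Its wild-type level was lower at the final harvest (log2 difference -0.59), where those of the stretch other than CDKN3 were higher. The wild-type harvests of CDKN3 overlapped. Over time in the wild type 5 of the 20 neighbours stood higher without overlap, as did 10.8% of tested genes, and 1, SAMD4A, stood lower. Among the 5 were DDHD1 (0.24), CNIH1 (0.26) and GCH1 (0.42), so a higher final level was not particular to the stretch. The 3 genes CNIH1, GMFB and CGRRF1, with smaller differences between genotypes, lie between CDKN3 and SAMD4A. Between genotypes the lowest neighbours were GPR137C at -0.21 at the initial and FERMT2 at -0.37 at the final harvest.

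**Figure D2:**
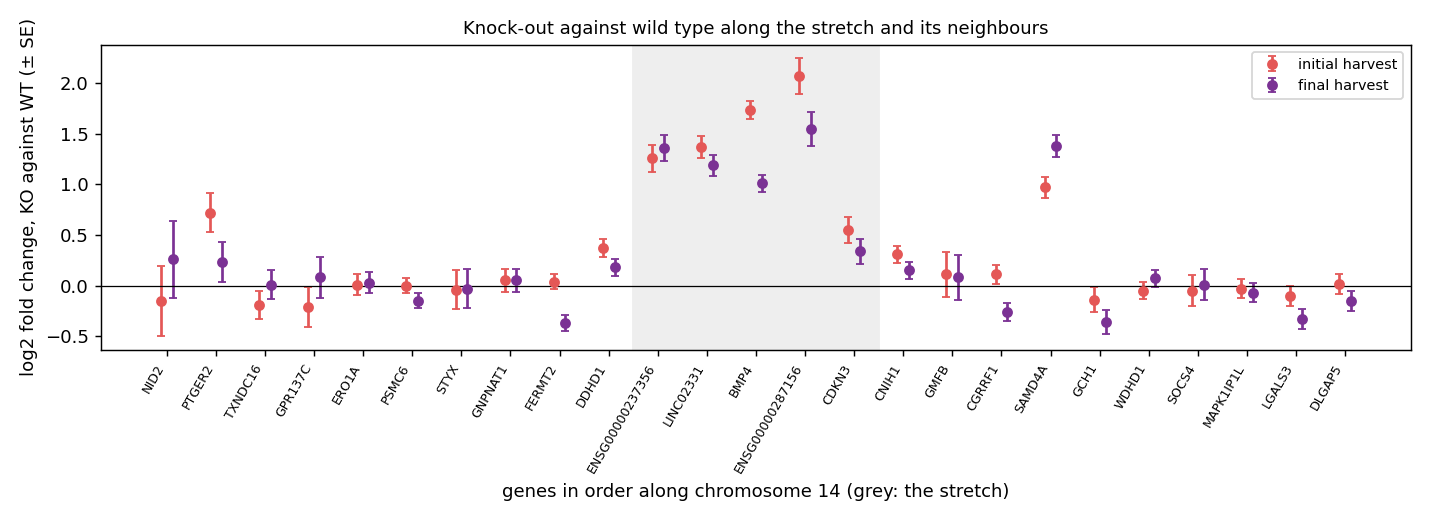
Log2 fold change of knock-out against wild type (vertical axis, ± SE) for the 5 genes of the stretch (grey) and the 10 counted genes on each side, in their order along chromosome 14 (horizontal axis, not to distance), at the initial and the final harvest. The 4 genes from ENSG00000237356 to ENSG00000287156 lie at 1.01 or above at both harvests, CDKN3 at 0.55 and 0.34, and SAMD4A is the neighbour that stands highest, at 0.97 and 1.38.

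The other genes of the BMP pathway were read from 5 lists. In edgeR's quasi-likelihood test, with Benjamini-Hochberg adjustment over all genes, 16 of 42 tested genes of the lists had an adjusted p under 0.05 at the initial harvest, 6 higher and 10 lower in the knock-out, and 13 did at the final harvest, 4 higher and 9 lower. Over all tested genes 8.55% were called higher and 11.3% lower at the initial harvest, and 8.38% and 10.2% at the final harvest. The median log2 difference over the 42 genes was -0.05 and -0.02. Over time in the knock-out 1 of the 42, MSX1, was called by edgeR, which called 270 of 18289 tested genes (1.48%) in either direction. DESeq2 called 3 of the 42, and 599 of all genes. These lists were drawn up with earlier results of the same libraries known.

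Among 6 tested ligands other than BMP4, 1 was higher and 2 were lower in KOT0 than in WTT0, and 2 were higher and 2 lower in KOTF than in WTTF. The shares of all tested genes were 8.55% higher and 11.3% lower initially, and 8.38% and 10.2% finally. BMP2, the ligand closest to BMP4 in sequence, had no count in any of the 6 knock-out libraries. It held 3 to 11 counts in the initial and 25 to 32 counts in the final wild-type libraries. Against a floor of 3 counts per library it was at least 1.97-fold lower in KOT0 than in WTT0 (adjusted p = 0.00695 in edgeR) and at least 9.85-fold lower in KOTF than in WTTF (adjusted p = 3.63e-05 in edgeR). In the wild type BMP2 rose over time by 2.31 on the log2 scale (adjusted p = 0.00536 in edgeR; DESeq2 gave no adjusted p), the same direction as the values of BMP4, at a level of 0.746 ± 0.0889 CPM in WTTF (SD, n = 3).

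BMP6 was lower in the knock-out, at 2.25 ± 0.133 CPM in KOT0 against 4.67 ± 0.709 in WTT0 and at 1.69 ± 0.421 in KOTF against 4.06 ± 0.656 CPM in WTTF (SD, n = 3). Its log2 differences were -1.05 and -1.26, with adjusted p of 0.000501 and 0.000144 in edgeR. BMP6 and ID4, a target gene given below, both lie on chromosome 6. The levels of genes beside them were not examined here, so a change shared with their neighbours was not tested. BMP7 was higher in the knock-out, at 25.4 ± 0.808 against 18 ± 1.17 CPM initially and 22.1 ± 1.26 against 15.7 ± 0.909 CPM finally (SD, n = 3), with log2 differences of 0.50 and 0.49 and adjusted p of 0.00052 and 0.000638. BMP8A was higher by 0.25 at the final harvest (adjusted p = 0.0455), a call lost in 10 of 12 fits that left out 1 library, with adjusted p from 0.0331 without WTT0 replicate 2 to 0.136 without KOTF replicate 2, and also without the filter, in the fit of the groups compared and with the replicate number as a block. Of the summed CPM per kb of BMP4 and the other listed ligands, BMP4 made up 86 ± 1.11% in WTT0, 92.4 ± 0.208% in WTTF, 95.3 ± 0.265% in KOT0 and 95.8 ± 0.0577% in KOTF (SD, n = 3). BMP4 was thus the predominant BMP transcript per length in each group.

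Of 10 tested receptors and co-receptors, 1 was higher and 1 lower in KOT0 than in WTT0 (8.55% and 11.3% of all tested genes), and 1 was higher in KOTF than in WTTF (8.38%). BMPR1A, a type I receptor of BMP4, was at 26.3 ± 2.63 CPM in WTT0 and 26.7 ± 2.37 CPM in KOT0 (SD, n = 3), with log2 differences of 0.02 and 0.05 (adjusted p = 0.923 and 0.796 in edgeR). BMPR2, the type II receptor, had differences of -0.25 and -0.17 (adjusted p = 0.252 and 0.482); without WTT0 replicate 2 the initial p was 0.0187. TGFBR3, a co-receptor that also binds BMPs, was higher by 0.67 at the initial harvest (adjusted p = 0.000553) and by 0.36 at the final harvest (adjusted p = 0.0385), the latter lost in 9 of 12 fits without 1 library, with adjusted p up to 0.12 without KOTF replicate 2. RGMB, a BMP co-receptor, had a log2 difference of -0.59 at the initial harvest, at 8.47 ± 0.972 CPM in KOT0 against 12.7 ± 1.06 CPM in WTT0 (SD, n = 3, adjusted p = 0.000655). In the wild type RGMB fell to 8.17 ± 0.0252 CPM at the final harvest (adjusted p = 0.00127), and the final genotype difference was -0.07 (adjusted p = 0.723).

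Of 10 tested antagonists, 2 were higher and 1 was lower in KOT0 than in WTT0 (8.55% and 11.3% of all tested genes), and 1 was lower in KOTF than in WTTF (10.2%). FSTL3, a follistatin-like protein that binds activins and BMPs, was higher by 0.60 initially, at 47.2 ± 0.979 CPM in KOT0 against 31.1 ± 3.45 CPM in WTT0 (SD, n = 3, adjusted p = 0.000316). BAMBI, a decoy receptor that is itself a BMP target, was higher by 0.38 (adjusted p = 0.018), a call lost without WTT0 replicate 3 (adjusted p = 0.0653) and in 2 further fits, without KOT0 replicate 1 or 3. CHRD, a secreted protein that binds BMP4 and keeps it from its receptors, was lower at both harvests, by log2 differences of -0.52 (adjusted p = 0.0103) and -0.57 (adjusted p = 0.0062). The initial call of CHRD was lost without KOT0 replicate 3 (adjusted p = 0.0592) and without KOT0 replicate 2.

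Of 6 SMAD transducers and SMURF ubiquitin ligases, 1 was lower at the initial harvest, as were 11.3% of all tested genes, and none passed in edgeR at the final harvest. There 1, SMURF2, had an unadjusted p under 0.05 and was called by DESeq2. The shares of all tested genes by these 2 measures are not given here. SMURF2, a ubiquitin ligase that targets SMADs and their receptors, was at 256 ± 6.94 CPM in KOT0 against 384 ± 21.8 CPM in WTT0 (SD, n = 3; log2 difference -0.59, adjusted p = 4.97e-05 in edgeR). At the final harvest the difference of SMURF2 was -0.22 (adjusted p = 0.0614, and 0.0432 without WTT0 replicate 2). SMAD1 had differences of -0.06 and -0.03, SMAD5 of -0.15 and -0.05, SMAD9 of 0 and -0.16 and SMAD4 of -0.05 and 0.05, with adjusted p between 0.506 for SMAD5 and 0.989 for SMAD9 at the 2 harvests.

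Of 12 BMP target genes, 3 were higher and 5 lower in KOT0 than in WTT0, and 1 was higher and 6 were lower in KOTF than in WTTF, with medians of 0.02 and -0.27. Over all tested genes 8.55% were higher and 11.3% lower initially, and 8.38% and 10.2% finally. The list was drawn up with earlier results of the same libraries known. The ID genes, which encode dimerization partners that block basic helix-loop-helix factors, did not share a direction. ID1 was at 234 ± 51 CPM in WTT0, 314 ± 27 in WTTF, 240 ± 6 in KOT0 and 231 ± 25.4 CPM in KOTF (SD, n = 3). Its log2 difference between genotypes was 0.04 initially (adjusted p = 0.884) and -0.44 finally (adjusted p = 0.026), a call lost in 4 of 12 fits without 1 library, with adjusted p up to 0.123 without KOTF replicate 1. ID2 had 0.10 (adjusted p = 0.422) and then -0.39 (adjusted p = 0.00247). ID3 was higher by 0.69 at the initial harvest, at 15.9 ± 0.451 against 9.85 ± 1.57 CPM (SD, n = 3, adjusted p = 0.00101), and had 0.10 at the final harvest (adjusted p = 0.678).

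The inhibitory SMADs, which are induced by BMP and dampen its signal, differed from each other. SMAD6 had 0.05 at the initial harvest (adjusted p = 0.732) and was higher in the knock-out by 0.96 at the final harvest (adjusted p = 1.54e-06), with means of 15.7 ± 0.969 CPM in WTT0, 9.17 ± 0.682 in WTTF, 16.3 ± 0.297 in KOT0 and 17.8 ± 1.32 CPM in KOTF (SD, n = 3). SMAD7 was lower in the knock-out by log2 differences of -1.82 (adjusted p = 4.7e-08) and -0.55 (adjusted p = 0.0133), with means of 8.36 ± 0.285 CPM in WTT0, 2.61 ± 0.137 in WTTF, 2.37 ± 0.28 in KOT0 and 1.78 ± 0.241 CPM in KOTF. The final call of SMAD7 was lost without KOTF replicate 3 (adjusted p = 0.0641). In the wild type both inhibitory SMADs fell over time, by a log2 difference which for SMAD6 was -0.78 (adjusted p = 0.000109) and for SMAD7 -1.68 (adjusted p = 9.21e-07), while BMP4 stood higher at the final harvest.

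MSX1, a homeobox gene induced by BMP4 in many tissues, was higher by 0.79 at the initial harvest, at 78.4 ± 4.12 CPM in KOT0 against 45.5 ± 7.91 CPM in WTT0 (SD, n = 3, adjusted p = 0.000102). In the knock-out MSX1 then fell over time by 0.64 on the log2 scale (adjusted p = 0.00731, and 0.0537 without KOT0 replicate 2) to 50.1 ± 3.04 CPM, and the final genotype difference was 0.16 (adjusted p = 0.365). MSX2, the related homeobox gene, was lower in the knock-out by log2 differences of -0.48 (adjusted p = 0.0307) and -1.01 (adjusted p = 0.000166). The initial call of MSX2 was lost in 5 of 12 fits without 1 library, with adjusted p up to 0.106 without KOT0 replicate 1. BAMBI, given above among the antagonists, is also on the target list and was called higher at the initial harvest (0.38). The targets called besides these, named after their values were seen, were lower: ID4 at both harvests (-2.89 and -2.68, on 2 to 10 counts per knock-out library), HEY1 at both (-1.19 and -1) and ATOH8 at the initial harvest (-0.70, adjusted p = 0.0253). HEY1 lost its initial call without KOT0 replicate 2 (adjusted p = 0.0514) and its final call in 5 of 12 such fits (up to 0.155 without WTTF replicate 1), and ATOH8 lost its call in 4 of 12 (up to 0.107 without WTT0 replicate 3).

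**Figure D3:**
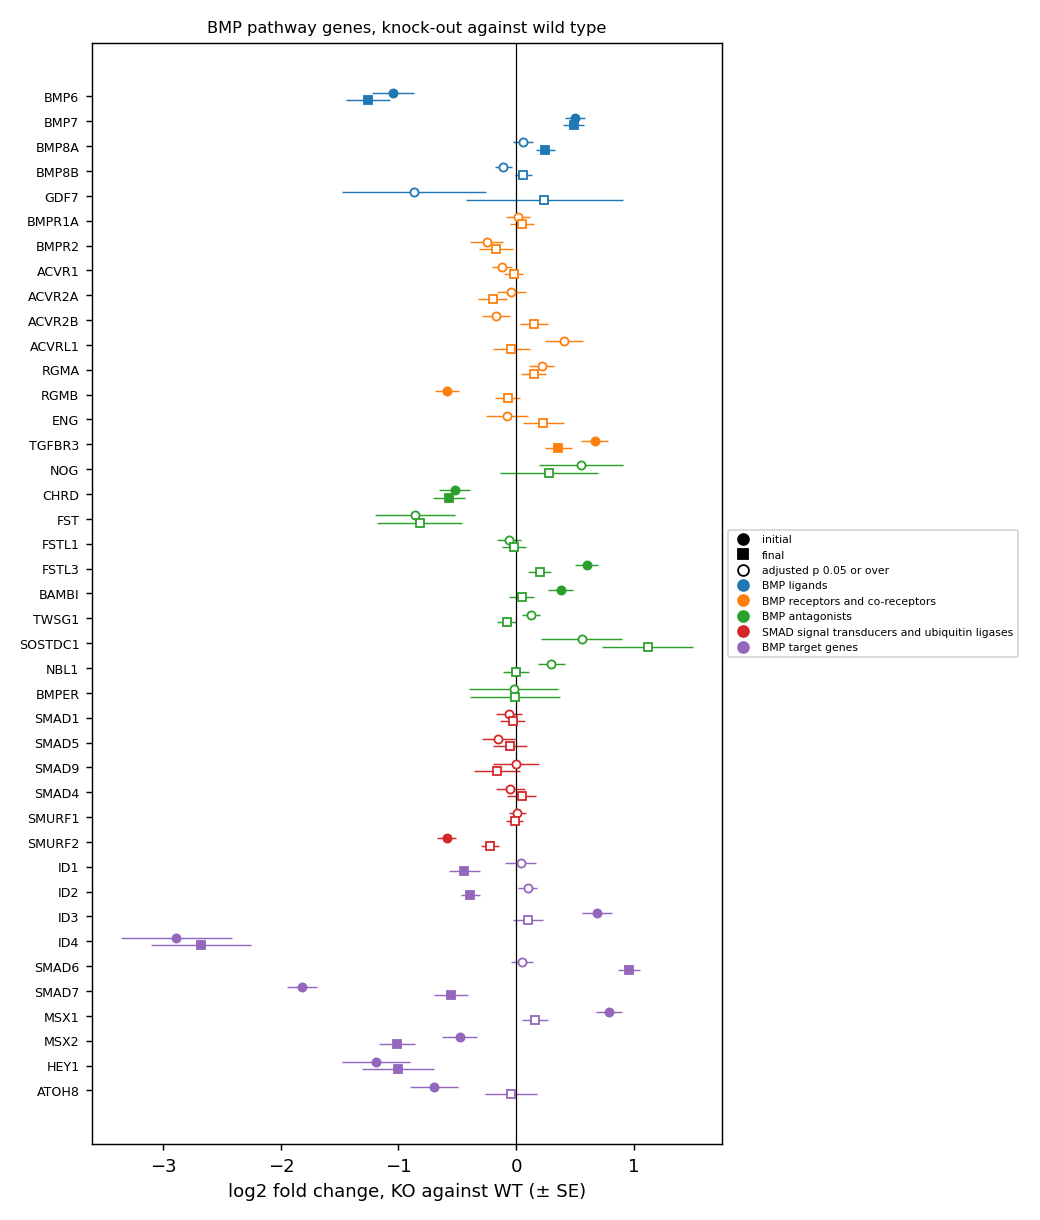
Log2 fold change of knock-out against wild type (horizontal axis, ± SE) for the tested genes of the 5 BMP lists (vertical axis, by role; colours give the list), at the initial (circles) and final (squares) harvest; filled symbols passed the edgeR test at an adjusted p under 0.05, and BMP2 is left out since its knock-out libraries are all at 0. Receptors, co-receptors, SMADs and SMURFs lie between -0.59 for RGMB and SMURF2 and 0.67 for TGFBR3, and targets range from -2.89 for ID4 to 0.96 for SMAD6.

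Around CDKN3, 37 tested genes of 2 cell cycle lists were read. In KOT0 4 were higher and 1 was lower than in WTT0, where 8.55% and 11.3% of all tested genes were. In KOTF 4 were higher and 2 lower than in WTTF, where 8.38% and 10.2% of all tested genes were, with median log2 differences of 0.11 and 0.06. Without WTT0 replicate 2 the initial count was 11 and without KOT0 replicate 2 it was 3. Of 22 genes of G2 and mitosis, whose transcripts peak with that of CDKN3, 1 passed in edgeR at the initial harvest and none at the final harvest. At the final harvest 5 had an unadjusted p under 0.05 and DESeq2 called 3, CDK1, HMMR and TOP2A. The shares of all tested genes by these 2 measures are not given here, so neither count is read as a result. The gene called initially was CDC20, an activator of the anaphase-promoting complex, at 298 ± 13.8 CPM in KOT0 against 231 ± 44.3 CPM in WTT0 (SD, n = 3; log2 difference 0.37, adjusted p = 0.0371), a call lost in 6 of 12 fits without 1 library (up to 0.137 without WTT0 replicate 1). CDK1, a substrate of CDKN3, had 0.11 (adjusted p = 0.388) and 0.25 (adjusted p = 0.0543; 0.0362 without WTT0 replicate 2), and CDK2, another substrate, had -0.06 (adjusted p = 0.684) and -0.11 (adjusted p = 0.414).

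The mean log2 CPM of the 22 genes was 6.85 ± 0.119 in WTT0, 6.76 ± 0.0231 in WTTF, 6.94 ± 0.0493 in KOT0 and 6.84 ± 0.0666 in KOTF (SD, n = 3). WTT0 replicate 2, the wild-type library of that group with the most CDKN3, also had the highest such mean, 6.98. Relative to that mean CDKN3 stood at -2.18 ± 0.116 in WTT0, -1.96 ± 0.223 in WTTF, -1.71 ± 0.117 in KOT0 and -1.69 ± 0.0656 in KOTF on the log2 scale (SD, n = 3). At each harvest the knock-out libraries lay above the wild-type libraries on this relative scale, with a nearest pair of -1.79 and -1.76 at the final harvest. CDKN3 was picked for differences in these same libraries, so this separation largely restates that choice. It was not tested, and the share of all genes that separate on this scale was not counted.

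**Figure D4:**
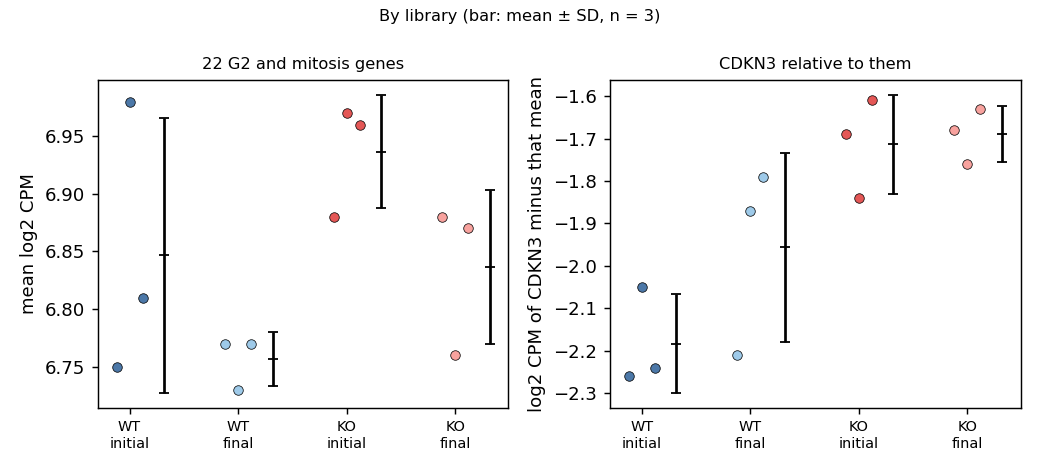
Left, mean log2 CPM of 22 genes of G2 and mitosis in each library; right, log2 CPM of CDKN3 minus that mean; neither vertical axis includes 0, points are libraries by group and bars are the mean ± SD of 3 libraries. At each harvest the genotypes overlap on the left, and on the right the initial wild type (-2.26 to -2.05) lies below the initial knock-out (-1.84 to -1.61).

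Of the 18 tested cyclins, kinases and inhibitors, CDK6, CCND1 and CDKN1A were higher and CDKN2B was lower in the knock-out at both harvests. Higher were 8.55% of all tested genes initially and 8.38% finally, and lower were 11.3% and 10.2%. CDK6, a kinase of the G1 phase, was at 114 ± 3.31 CPM in KOT0 against 73.6 ± 13.4 CPM in WTT0 and at 120 ± 17.6 in KOTF against 44.6 ± 0.758 CPM in WTTF (SD, n = 3), with log2 differences of 0.63 (adjusted p = 0.000992) and 1.42 (adjusted p = 2.68e-07). CCND1, its cyclin partner, was higher by 0.34 (adjusted p = 0.01; 0.0535 without KOT0 replicate 2) and 0.52 (adjusted p = 0.000335). CDKN1A, which encodes the kinase inhibitor p21, was higher by 0.98 (adjusted p = 6.95e-06) and 0.37 (adjusted p = 0.0221), the latter lost without KOTF replicate 3 (0.118) and without WTTF replicate 1 or 3. CDKN2B, an inhibitor of CDK4 and CDK6 that TGF-beta induces in epithelia, had log2 differences of -1.05 (adjusted p = 3.21e-06) and -1.36 (adjusted p = 1.51e-07). The other 2 genes called at the final harvest, named after their values were seen, were CDKN1B, higher by 0.60 (adjusted p = 0.000777), and CDKN2A, with -0.44 (adjusted p = 0.0265, lost in 4 of 12 fits without 1 library, up to 0.148 without WTTF replicate 2).

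Over the 12 libraries, the genes outside the stretch whose log2 CPM ran most like that of BMP4, among 12532 genes whose log2 CPM averaged 1 or more, were MOXD1 (Pearson r 0.987), SH3RF1 (0.982), GJB5 (0.979), APC2 (0.976) and CSTF3 (0.976). The means of MOXD1 were 5.17, 7.23, 11.6 and 11.9 CPM in WTT0, WTTF, KOT0 and KOTF, the same order as those of BMP4. For CDKN3 they were NUDT19 (0.97), CCDC51 (0.962), TIMM8B (0.961), EI24 (0.96) and TYW3 (0.958), with NUDT19 at 23.4, 25.7, 30.5 and 29.8 CPM. The points share the same 4 groups, so these values mostly restate the differences between group means, and no p-value belongs to them.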

How the data were processed

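RNA of 12 HCT116 samples was sequenced after poly-A selection. The authors deposited whole-number read counts for each gene and library, not normalized. The submitters' processing notes name STAR, featureCounts, Subread and hg38; versions, the annotation release and the use of strand are not given in the sources used here. Symbols were found for 60506 of 60648 gene IDs, and all 37318 IDs shared with GENCODE 29 had the same coordinates there. The table had 1 gene broken over 5 lines, which was left out.

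All 12 libraries were fitted together in edgeR 4.0.16 (limma 3.58.1, R 4.3.3): filterByExpr by group (18289 genes), TMM, a mean for each group, robust quasi-likelihood tests of 5 contrasts and Benjamini-Hochberg adjustment over all tested genes, called at an adjusted p under 0.05. CPM are TMM-scaled, log2 CPM have a prior count of 2, and CPM per kb use the exon length in the table. The method was tested on simulated counts. A group at 0 was bounded at 3 counts per library; intervals and floors cover counting error only.

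Named were the 5 genes of the stretch, 10 counted genes on each side, in each list up to 4 genes with the smallest adjusted p over both genotype contrasts plus ID1, ID2, ID3, BMPR1A, BMPR2, SMAD4, CDK1 and CDK2, and the 5 genes most like BMP4 and CDKN3 each. The stretch and the lists were chosen with earlier results of these data known. A planned test of the stretch over time in the knock-out is not given, since it uses the libraries that chose the stretch. Alternatives were RLE factors, no filter, DESeq2 1.42.0, only the groups compared, a replicate block, plain library totals and leaving out each library.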

Additional observations from a re-analysis of the deposited data

Results flagged for a closer look

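For 4 genes of the lists around BMP4 and CDKN3 the genotype difference changed between harvests by a test of that change itself, the interaction of genotype and harvest in edgeR, which called 1.28% of all tested genes. DESeq2, which called 464 of all genes for this change, also called RGMB, SMURF2, MSX1 and CDKN1A, which edgeR did not (adjusted p = 0.121, 0.15, 0.0792 and 0.0735 in edgeR). The difference of SMAD7 between knock-out and wild type was -1.82 initially and -0.55 finally, so it shrank in size. This change was 1.27 on the log2 scale (SE 0.194, adjusted p = 0.00217). The difference of SMAD6 was higher at the final than at the initial harvest by 0.90 (SE 0.132, adjusted p = 0.0014). That of CDK6 was higher by 0.79 (SE 0.166, adjusted p = 0.0243), a call lost in 7 of 12 fits without 1 library, with adjusted p up to 0.0749 without KOT0 replicate 1. That of ID2 was lower, at -0.49 (SE 0.113, adjusted p = 0.0458), a call lost in 9 of 12 such fits, up to 0.155 without KOT0 replicate 3, and with the replicate number as a block. In the wild type, SMAD7, SMAD6 and CDK6 fell over time (-1.68, -0.78 and -0.72 on the log2 scale), and ID2 rose by 0.29 (adjusted p = 0.0397), a call lost in 8 of 12 fits without 1 library (up to 0.159 without WTTF replicate 2), without the filter, with the replicate block and in the fit of the groups compared; in the knock-out their adjusted p over time lay between 0.19 for SMAD7 and 0.835 for CDK6.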

How the results depend on the processing

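The 10 genotype differences of the stretch gave 170 values under alternatives, all positive. The genes were picked for differences in these same libraries, so the shared sign is no further support. BMP4 ran from 1.67 to 1.79 at the initial and from 0.99 to 1.03 at the final harvest, and CDKN3 from 0.47 to 0.69 and from 0.23 to 0.43. Of 105 log2 differences recomputed, 2 of the stretch and 13 of list genes changed sign under an alternative, none of them called. In the stretch these were the unequal genotype difference of ENSG00000237356 (0.10), which was -0.01 without WTT0 replicate 1 and up to 0.19 in the other fits without 1 library, and the difference of BMP4 over time in the knock-out (0.04), which was -0.01 without KOT0 replicate 3. The initial genotype difference of SMAD9, which rounds to 0, is not among the 13 and ran from -0.14 to 0.08 in the fits without 1 library. Counts of called genes moved more. Leaving out 1 library gave 2407 to 4624 calls in place of 3635 for the initial genotype comparison (2407 without KOT0 replicate 2), 624 to 1403 in place of 1183 over time in the wild type (624 without WTTF replicate 3), 91 to 471 in place of 270 over time in the knock-out (91 without KOT0 replicate 3, 471 without WTT0 replicate 2), and 124 to 444 in place of 235 for the interaction (124 without KOT0 replicate 3, 444 without WTT0 replicate 2). The count of the 2 cell cycle lists at the initial harvest, 5, became 8 without the filter and 3 to 11 without 1 library. Fitting only the groups compared gave 579 calls for the wild type between harvests and 723 for the knock-out. Without the filter the knock-out over time had 484 calls and the interaction 423; with DESeq2 they had 599 and 464. The cause of these moves was not tested. Replicate numbers did not pair the libraries (8 of 18 same-number correlations exceeded 0.1, and 2 of 12 libraries correlated best with their own number); with the replicate number as a block the 5 comparisons had 3539, 3298, 1123, 246 and 217 calls, and BMP4 kept 1.74 and 1.01 and CDKN3 0.55 and 0.35. On plain totals the mean of BMP4 in WTTF was 489 CPM.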
